A study of Drosophila melanogaster with 6 samples.

Results

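The genes described are 91 protein-coding and non-coding genes of Drosophila melanogaster that carry a CG number in the count table and had less RNA in GCNA null than in wild-type ovaries. A CG number is the label that the genome annotation gives to a gene predicted from sequence, and many such genes have never been named or studied. A row was taken where its name was CG followed by digits and its mean over the wild type libraries was at least 20 normalized counts. The wild type mean had to be at least 1.7 times the GCNA null mean, and the lowest wild type library had to lie above the highest GCNA null library. Of 13216 rows, 5868 had a CG number as their name, 3835 of these reached the wild type mean, and 98 (2.56%) met the whole rule. Among rows with other names and that wild type mean, 2.02% met it. With the groups exchanged, 7.1% of CG-numbered rows with a GCNA null mean of at least 20 did so. The row of Gcna itself (CG14814) and 6 others (CG2694, CG3857, CG2712, CG11382, CG3690 and CG13375) were set aside by name, which left 91. The genes were thus chosen by the same GCNA null and wild type values that are given below, and their lower level in GCNA null ovaries is a description of how they were chosen and is not tested.

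The study sequenced ovary RNA of 2 stocks, with 3 libraries each. GCNA null females carried a null allele of Gcna made with a CRISPR knock-in/knock-out construct and had been outcrossed for 10 generations to wBerlin, a white-eyed stock. Wild type females were wBerlin. Both were aged 1 to 3 days, had been collected at 0 to 2 days and kept on wet yeast for 24 hours at 25 °C, and whole ovaries were used, with all their cell types. How many females or ovaries went into a library is not stated in the labels. Nor is it stated whether libraries of 1 stock were made from different flies, so the spread between them may be technical. The labels also leave out whether the GCNA null stock is 1 line, and a stretch of the founder chromosome that stayed linked to Gcna would differ along with it. The values are reads per gene divided by 1 size factor per library, called normalized counts below. The libraries held 38401723 to 55758180 counted reads and 1 read was worth 0.789 to 1.15 normalized counts, so values under about 20 rest on few reads.

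Gcna encodes a germ cell nuclear protein, and its relatives act on proteins that are crosslinked to DNA. An ovary holds egg chambers of many ages side by side, from stem cells to mature eggs. Each egg chamber has germline cells, the oocyte and its nurse cells, which make most of the RNA of early chambers. A layer of follicle cells surrounds them and, late in development, secretes the vitelline membrane and the chorion, the layers of the eggshell. Muscle, oviduct and small amounts of fat body or gut may come along with dissected ovaries. In such bulk samples, fewer cells of a type and less RNA per cell cannot be told apart.

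The row of Gcna, which lies on X at 1862009 to 1865835 (minus strand), held 493, 428 and 520.4 normalized counts in GCNA null ovaries, against 20676, 18292 and 19581 in wild type, and the GCNA null mean was 2.46% of the wild type mean. All 6 libraries thus fit their labels. GCNA null replicates 1 and 2 were almost alike, with differences only slightly above the counting noise. A chi-square of their read counts came to 1.66 per degree of freedom, against 26.9 to 100.4 for the other 5 pairs within a group. They were counted as 1 sample in the fit over all rows, so that each log2 difference below compares 2 GCNA null samples with 3 wild type samples and is given with its standard error (SE). Markers of germline and oocyte were abundant in every library, and their summed level was 90.5% of the wild type mean in the mean of GCNA null replicates 1 and 2 and 86.9% in replicate 3. Of the 9 listed, 2 (vas and otu) lay wholly below wild type and 0 wholly above it. Of CG-numbered rows with a wild type mean of at least 20, 20.7% lay wholly below wild type. The chorion genes stood at 39.7% of the wild type mean in replicates 1 and 2 and at 116% in replicate 3, and the vitelline membrane genes at 39.5% and 78.0%. GCNA null replicate 3 thus had more eggshell RNA than replicates 1 and 2.

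The 91 genes were mostly scarce. Their median wild type mean was 149 normalized counts, against 1266 over all CG-numbered rows with a wild type mean of at least 20 that the annotation matched (3824 rows). Per kilobase of exon the medians were 86.6 and 718 normalized counts. The rule used these same wild type values, and counting noise moves the ratio of scarce rows more than that of abundant ones. The part of the rule in this difference was not tested. The wild type mean was under 50 in 26 of the genes, 50 to under 100 in 15, 100 to under 1000 in 37 and at least 1000 in 13. By gene length and exon number they were close to the same rows: the median gene spanned 2644 bp with 1894 bp of exon in 4 exon blocks, against 2308.5 bp, 1844 bp and 4 exon blocks. The annotation (Ensembl BDGP6, the same assembly as dm6) gives 90 of them as protein coding and 1, CG43193, as a long non-coding RNA. It now lists 18 under another symbol and 73 still under the CG number. No sequences are shown, since no sequence of these genes was at hand.

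The GCNA null mean of the 91 genes ranged from 0% to 58.4% of the wild type mean, with a median of 45.3%. The wild type mean was at least 2 times the GCNA null mean in 57 genes, at least 3 times in 23, at least 5 times in 8 and at least 10 times in 4. The median log2 difference, GCNA null minus wild type, was -1.05. Of the 91, 89 had enough counts to enter the fit over all 10132 rows (limma, Benjamini-Hochberg adjusted p under 0.05) and 33 of the 89 were called lower, where 2.11% of all rows tested were called lower and 6.37% in either direction. The count was 18 without wild type replicate 2 and 19 without wild type replicate 3. Of all 10132 rows, 95 and 67 were called lower in these 2 fits. On recovered reads, edgeR called 32 lower (1.92% of all rows) and DESeq2 44 (5.35%), and limma on 6 separate libraries called 61 (7.39%). No meaning is read into these counts, since the rule used the same contrast. The other 56 met the rule without passing the fit.

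**Figure D1:**
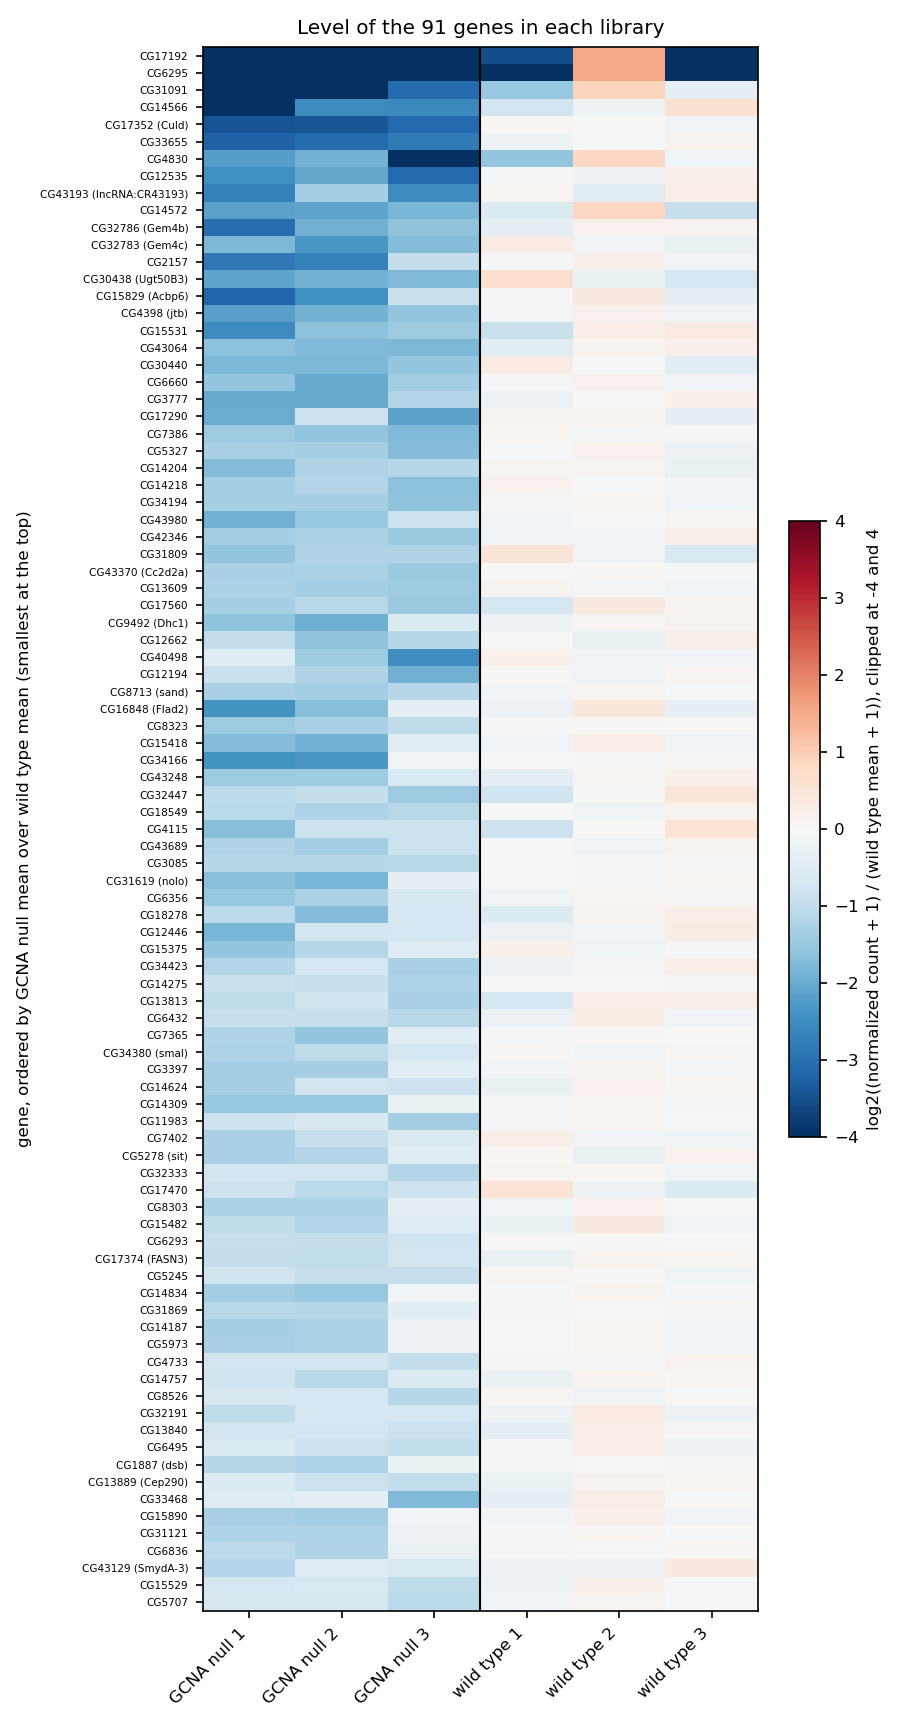
Level of each of the 91 genes (rows) in each of the 6 libraries (columns, GCNA null on the left), as log2 of the normalized count plus 1 over the wild type mean plus 1, with blue below and red above the wild type mean. The GCNA null columns are blue throughout by the rule, and for 30 genes replicate 3 is at least 1.5 times the mean of replicates 1 and 2.

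Near the limits of the rule, by the ratio of the wild type mean to the GCNA null mean, the last inside were CG5707 (1.71), CG15529 (1.71) and CG43129 (1.73), and the first outside were CG34334 (1.69), the fatty acid synthase gene FASN1 (CG3523, 1.68) and CG13284 (1.68). By wild type mean, the last inside were CG43248 (20.7), CG17290 (21.0) and CG12662 (21.2 normalized counts), and the next below were CG13566 (16.6), CG14853 (15.4) and CG11659 (14.9). Another 42 rows met every threshold apart from the one on overlap. First among these by ratio were CG34026, which had no read in any GCNA null library, CG3819 and CG18180. CG34026 had 0, 106 and 0 normalized counts in wild-type ovaries. CG18180 had 9.20, 9.47 and 21.1 normalized counts in GCNA null ovaries, against 3.74, 1819 and 8.72 in the wild type libraries, so wild type replicate 2 alone made its ratio. At the overlap limit, CG15890 was only just inside, since its highest GCNA null library had 526.43 normalized counts and its lowest wild type library 526.44.

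Of the 13 genes with a wild type mean of at least 1000, CG17352, now named Culd, kept the smallest share of its wild type level in GCNA null ovaries. It lies on 3L at 8352355 to 8356296 (minus strand). Culd encodes a membrane protein with CUB and LDLa domains that takes part in endocytosis in photoreceptors. It had 282, 287 and 361 normalized counts in GCNA null ovaries, against 3286, 3138 and 2865 in the wild type libraries. The GCNA null mean was 10.0% of the wild type mean, and all 3 GCNA null libraries lay far from any wild type library (log2 difference -3.27, SE 0.12). Its next gene on the same strand, 107 bp away, is Idh, which encodes an NADP-dependent isocitrate dehydrogenase. Idh was higher in GCNA null ovaries, with 15584, 15345 and 15873 normalized counts in GCNA null, against 11175, 12034 and 12641 in wild type (log2 difference 0.39, SE 0.07, limma adjusted p = 0.027).

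Other receptor and surface proteins among the genes differed less. Dsb (CG1887), or debris buster, is a class B scavenger receptor. It had 478, 451 and 876 normalized counts in GCNA null and 1003, 1069 and 1088 in wild-type ovaries, so that GCNA null replicate 3 came close to wild type. Smal (CG34380), a discoidin-domain receptor, had 31.1, 36.3 and 46.3 in GCNA null and 77.6, 68.7 and 77.4 in wild-type ovaries. Nolo (CG31619) encodes an ADAMTS-like protein of the extracellular matrix. Its 42.6, 37.9 and 109 normalized counts in GCNA null ovaries, against 136, 131 and 145 in wild type, again put replicate 3 above its group.

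Enzymes and binding proteins of lipid metabolism made up the next kind of gene, and their libraries did not share 1 pattern. CG6295, CG17192 and CG31091 encode predicted lipases, the first pair of the digestive kind. CG17192 had no read in any GCNA null library and 19.6, 703 and 3.27 normalized counts in wild-type ovaries. Taking 3 reads in all GCNA null libraries as the floor, this is at least 246-fold lower in GCNA null ovaries, and at least 11.7-fold lower without wild type replicate 2. CG6295 had 2.30, 1.58 and 1.01 normalized counts in GCNA null, against 30.9, 1482 and 4.36 in wild type. Its GCNA null mean was 311-fold lower than the wild type mean, and 10.8-fold lower without wild type replicate 2, so that 1 library set the size of both differences. The 2 genes lie 10124 bp apart on 3R, and neither had enough libraries with 10 normalized counts to enter the fit. Wild type replicate 2 also had the highest summed level of 7 gut marker genes. That sum was 2003, 1918 and 1028 normalized counts in GCNA null ovaries, against 848, 9121 and 360 in the wild type libraries. The part of gut tissue in these 2 genes was not tested. CG31091, elsewhere on 3R, had 1.15, 1.58 and 5.03 normalized counts in GCNA null, against 16.8, 94.1 and 39.2 in wild type (log2 difference -3.44, SE 0.77), so that its GCNA null values rest on few reads.

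FASN3 (CG17374), a fatty acid synthase, was even within each group. It had 413, 405 and 479 normalized counts in GCNA null and 656, 878 and 866 in wild-type ovaries (log2 difference -0.84, SE 0.16). Acbp6 (CG15829), an acyl-CoA binding protein, had 5.75, 10.3 and 32.2 in GCNA null and 57.04, 77.2 and 46.9 in wild-type ovaries, with GCNA null replicate 3 several times replicates 1 and 2. Sit (CG5278), an elongase of very-long-chain fatty acids, had 40.3, 44.2 and 71.5 in GCNA null and 105, 82.5 and 112 in wild-type ovaries. CG8303 encodes a predicted fatty acyl-CoA reductase and was among the most abundant of the genes. It had 4505, 4522 and 8549 normalized counts in GCNA null, against 9812, 12317 and 10719.5 in wild type, and GCNA null replicate 3 stood between replicates 1 and 2 and the wild type libraries. CG17560, another predicted reductase of this kind, was chosen for its role after its values were seen. It had 52.9, 62.3 and 47.3 in GCNA null and 83.2, 173 and 147 in wild-type ovaries, with all 3 GCNA null libraries alike.

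Channels and transporters came next. Sand (CG8713) encodes a potassium leak channel known from the control of sleep. It had 323, 311 and 359 normalized counts in GCNA null and 742, 855 and 800.0 in wild-type ovaries, with little spread in either group (log2 difference -1.24, SE 0.11). The gene shares 157 exon bases with uno (CG8712) on the other strand, which was higher in GCNA null ovaries, at 2101, 2077 and 2009 against 1697, 1643 and 1578 in wild type (log2 difference 0.32, SE 0.06, limma adjusted p = 0.038). CG6293, a predicted transporter of the SLC23 kind, was even within both groups, with 3992, 3917 and 4386 normalized counts in GCNA null, against 7560.4, 7831 and 7455 in wild type (log2 difference -0.87, SE 0.06). CG18549, of the major facilitator family, had 855, 779.5 and 845 in GCNA null and 1839, 1619 and 2013 in wild-type ovaries. Another 3 predicted transporters were chosen for their role after their values were seen. CG8323, a mitochondrial carrier, had 255, 283 and 342 in GCNA null and 678, 715 and 688 in wild-type ovaries. CG31121, an ABC transporter, had 423, 425 and 867 in GCNA null and 939.8, 1068 and 977 in wild-type ovaries. CG6356, of the SLC22 kind, had 51.8, 62.3 and 96.6 in GCNA null and 134, 162 and 156 in wild-type ovaries. CG8323 was thus even among the GCNA null libraries, whereas CG31121 and CG6356 were higher in replicate 3.

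Among the genes are 3 known from cilia, which flies build in sensory neurons and sperm. Cc2d2a (CG43370), a protein of the ciliary transition zone, had 317, 323 and 282 normalized counts in GCNA null and 795, 814 and 749.9 in wild-type ovaries (log2 difference -1.38, SE 0.10). Cep290 (CG13889), another transition zone protein, had 44.9, 36.3 and 33.2 in GCNA null and 55.2, 74.01 and 70.8 in wild-type ovaries. Dhc1 (CG9492), a dynein heavy chain of the ciliary axoneme, had 10.4, 7.89 and 22.1 in GCNA null and 28.1, 34.9 and 37.1 in wild-type ovaries. Of these only Cc2d2a had more than 100 normalized counts in any library. Of 13 testis genes listed as markers, 3 had a row in the table, with a summed level of 58.7, 67.1 and 74.5 normalized counts in GCNA null ovaries, against 44.9, 52.9 and 52.3 in the wild type libraries. Markers of the nervous system summed to 476, 469 and 299 in the GCNA null libraries, against 298, 285 and 322 in the wild type libraries. The gene elav held most of that sum. Of the other genes in the list, brp lay wholly below wild type and para wholly above it, and Syt1 and Rdl were under 10 in every library.

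Gem4b (CG32786) and Gem4c (CG32783) are copies of a Gemin4-family gene, whose product belongs to the SMN complex that assembles small nuclear ribonucleoproteins. They lie 777 bp apart on the plus strand of the X chromosome, Gem4b at 3940847 to 3944265 and Gem4c at 3945043 to 3948460. Gem4b had 4.60, 11.05 and 14.1 normalized counts in GCNA null, against 34.6, 50.7 and 49.05 in wild type (log2 difference -1.97, SE 0.37). Gem4c had 23.00, 15.8 and 24.2 in GCNA null, against 105, 76.1 and 68.7 in wild type (log2 difference -1.87, SE 0.28). Glos (CG2941), the neighbour of Gem4b on the same strand, was at a similar level in both groups, with 2635, 2616 and 2435 in GCNA null and 2345, 2154 and 2228 in wild-type ovaries (log2 difference 0.17, SE 0.07, limma adjusted p = 0.19). Since it is not known how reads that match several copies were counted, the split of reads between such copies is uncertain.

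CG5245 encodes a predicted C2H2 zinc finger protein and had 286, 261 and 265 normalized counts in GCNA null and 536, 521 and 444 in wild-type ovaries. CG7386, another zinc finger gene, and CG4733, a regulatory subunit of protein phosphatase PP2A, were chosen for their role after their values were seen. CG7386 had 453, 410.3 and 361 in GCNA null, against 1321, 1174 and 1202 in wild type (log2 difference -1.64, SE 0.11). CG4733 had 397, 394 and 343 in GCNA null and 645, 629 and 736 in wild-type ovaries. In each of the 3 genes the GCNA null libraries were close together and apart from wild type. SmydA-3 (CG43129), with a SET and a MYND domain, was near the lower limit of counts, at 9.20, 14.99 and 14.1 in GCNA null and 18.7, 19.03 and 28.3 in wild type.

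The remaining genes with a name are of mixed function. Ugt50B3 (CG30438), a UDP-glycosyltransferase, had 97.8, 114 and 124 normalized counts in GCNA null, against 660.2, 355 and 266 in wild type. Flad2 (CG16848), of FAD synthesis, had 20.7, 33.9 and 85.6 in GCNA null and 94.4, 152 and 89.4 in wild-type ovaries, where GCNA null replicate 3 almost reached wild type. Jtb (CG4398) had 106, 131 and 163 in GCNA null, against 468, 551 and 434 in wild type (log2 difference -1.79, SE 0.18). The long non-coding RNA CG43193 had 3.45, 10.3 and 4.03 in GCNA null, against 29.9, 20.1 and 33.8 in wild type (log2 difference -2.17, SE 0.41).

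**Figure D2:**
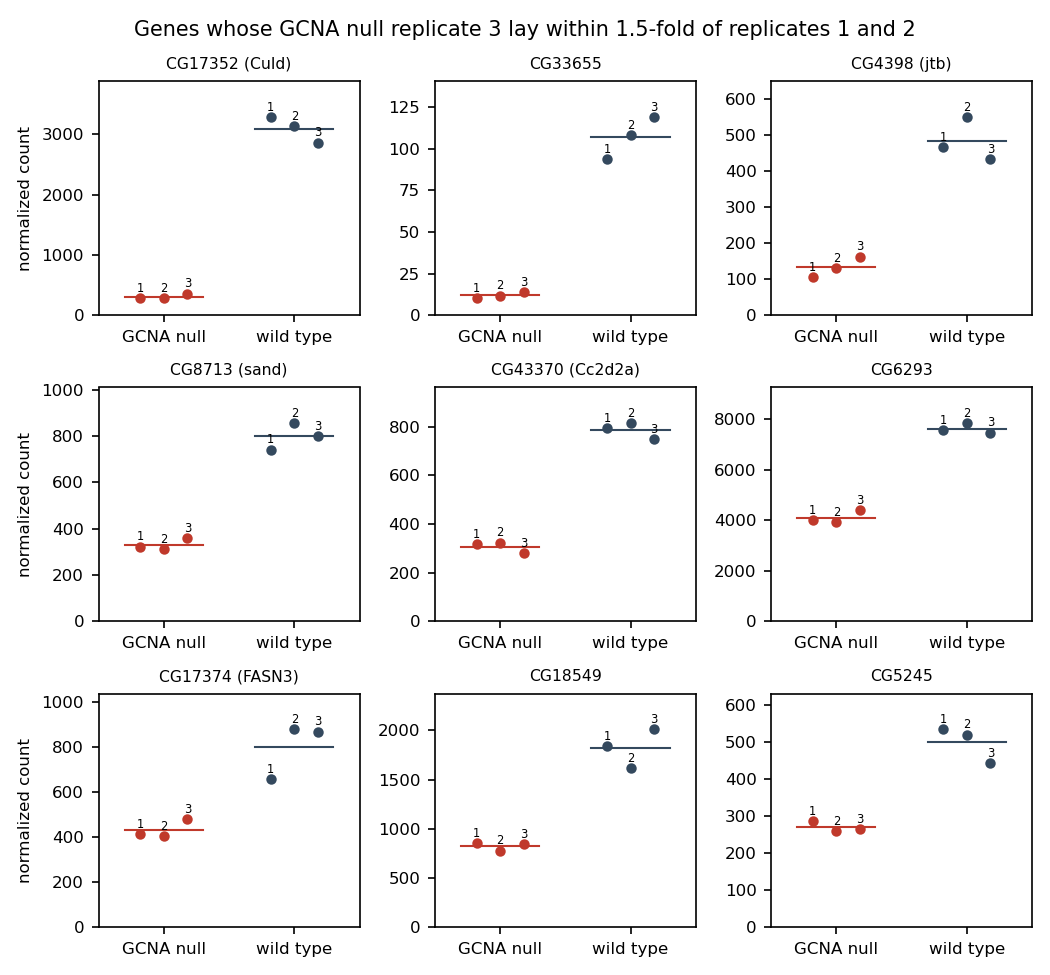
Normalized counts (linear axis from 0) of 9 genes in the GCNA null (left of each panel) and wild type libraries, with points numbered by replicate and a line at each group mean. In Culd the GCNA null libraries sit at 282 to 361 and the wild type libraries at 2865 to 3286, and in all 9 genes GCNA null replicate 3 lies within 1.5-fold of the mean of replicates 1 and 2.

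Several of the most depleted genes had low counts and were not placed in a group by role. CG14566 had 0, 3.16 and 3.02 normalized counts in GCNA null, against 13.1, 20.1 and 35.97 in wild type (log2 difference -2.79, SE 0.54). CG4830 had 8.05, 10.3 and 1.01 in GCNA null and 13.1, 74.01 and 35.97 in wild-type ovaries. CG14572 had 4.60, 4.73 and 6.04 in GCNA null and 15.9, 43.3 and 11.99 in wild-type ovaries. In CG4830 and CG14572 the wild type libraries differed several-fold among themselves, with replicate 2 the highest. CG33655, on 2R at 21317793 to 21320017, was more even, with 10.4, 11.8 and 14.1 in GCNA null, against 93.5, 108 and 119 in wild type (log2 difference -2.99, SE 0.25). It shares 1659 exon bases with CG9485 on the opposite strand, and CG9485 was far more abundant, at 5399, 5352 and 5710.2 in GCNA null and 6565, 6594 and 6670.4 in wild type (log2 difference -0.25, SE 0.05, limma adjusted p = 0.043). CG12535, on X at 3387944 to 3448943, had 6.90, 9.47 and 4.03 in GCNA null, against 41.1, 37.00 and 49.05 in wild type (log2 difference -2.67, SE 0.38), and shares 3754 exon bases with dm, the Myc gene, on the opposite strand. Dm had 30297, 31274 and 22806 normalized counts in GCNA null and 25464, 19733 and 23654 in wild-type ovaries. Of all 91 genes, 41 overlapped another annotated gene and 29 shared exon bases with one. Whether the counting used the strand is not known, so reads of overlapping genes cannot be told apart with certainty.

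In 5 of the 6 most abundant genes, all but CG6293, GCNA null replicate 3 was at least 1.5 times the mean of replicates 1 and 2. CG14309, on 3R at 18381580 to 18385072, had the highest level, in counts and per kilobase of exon. It had 17033, 17066 and 40598 normalized counts in GCNA null, against 46583, 52061 and 47218 in wild type. CG14834 had 5019, 4615 and 12296 in GCNA null, against 12574, 14652 and 12506 in wild type. In both, GCNA null replicates 1 and 2 were well below wild type and replicate 3 was near it. CG31869 had 4285, 4189 and 6962 in GCNA null and 8927, 9309 and 9629.5 in wild-type ovaries. CG5973, a predicted lipid-binding protein of the CRAL-TRIO kind, had 1867, 1929.8 and 4050.4 in GCNA null and 4644, 4978 and 4290.0 in wild-type ovaries. CG14187, a short gene of high level per kilobase, had 1159, 1202 and 2490.2 in GCNA null and 2865, 3127 and 2686 in wild-type ovaries. The wild type levels per kilobase of exon were 14553 normalized counts for CG14309, 9288 for CG14834, 5879 for CG14187, 4790 for CG8303, 2928 for CG6293 and 2406 for CG31869.

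**Figure D3:**
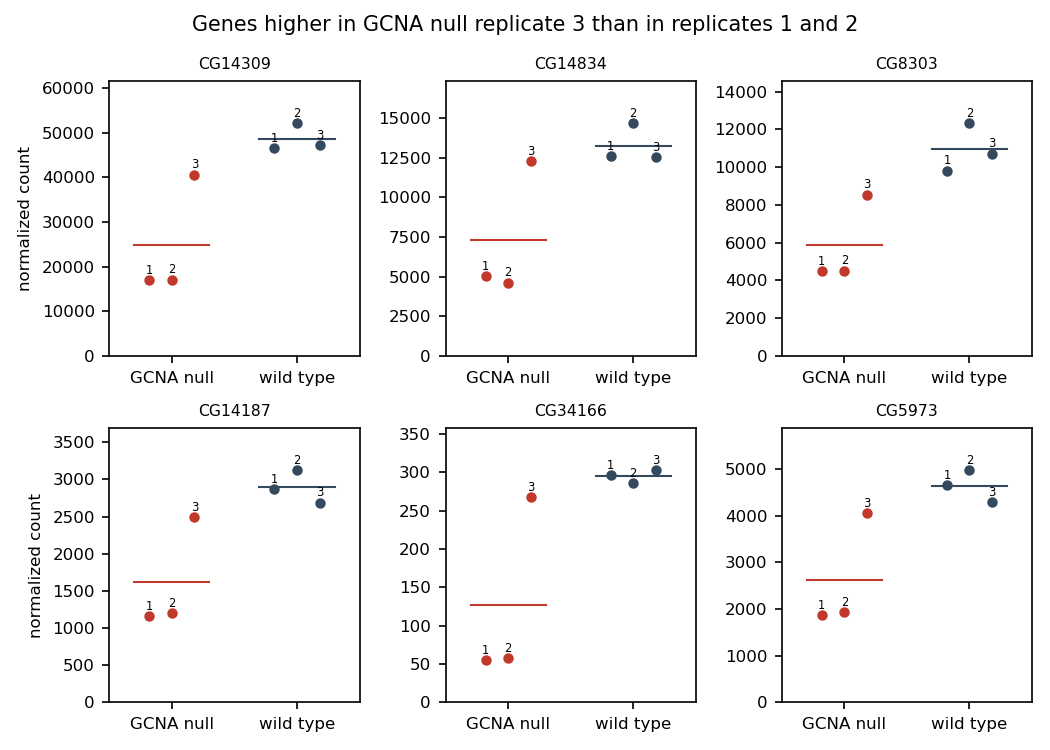
Normalized counts (linear axis from 0) of 6 genes in the GCNA null (left of each panel) and wild type libraries, with points numbered by replicate and a line at each group mean. In each panel GCNA null replicate 3 lies far above replicates 1 and 2, as in CG14309, where it reached 40598, against 17033 and 17066.

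The difference among GCNA null libraries split the genes into 3 classes, a division made after the values were seen. In 30 genes GCNA null replicate 3 was at least 1.5 times the mean of replicates 1 and 2, in 9 it was at most that mean divided by 1.5, and 52 were placed between. The 52 include CG17192, which had no read in any GCNA null library and so no ratio. Over all CG-numbered rows of that wild type level that the annotation matched, 6.62% were in the first class and 4.63% in the second. The rule used the same GCNA null values. Low values in replicates 1 and 2 alone could bring the GCNA null mean under its limit. No meaning is thus read into these shares. In the class of 30, the median level was 33.9% and 34.2% of the wild type mean in GCNA null replicates 1 and 2 and 73.1% in replicate 3. In the class of 52, it was 41.7%, 45.4% and 43.9% in GCNA null replicates 1 to 3. The farthest above were CG34166 (4.75 times), CG15829 (4.02), CG2157 (3.81) and CG31091 (3.69). CG34166 had 55.2, 57.6 and 268 normalized counts in GCNA null and 296, 285 and 303 in wild-type ovaries, and CG2157 had 10.4, 11.8 and 42.3 in GCNA null and 78.5, 94.1 and 74.1 in wild-type ovaries. The farthest below were CG4830 (0.11 times), CG40498 (0.30), CG33468 (0.38) and CG12535 (0.49), all of them scarce.

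The RNA of the eggshell differed among the same libraries. All 9 chorion genes listed had a row, and they summed to 306842, 294201 and 878145 normalized counts in GCNA null ovaries, against 726204, 893180.3 and 652314 in the wild type libraries. The 5 vitelline membrane genes summed to 175595, 164107 and 335551 in the GCNA null libraries, against 391058, 417503 and 482221 in the wild type libraries. Of the 5, 3 (Vm26Aa, Vm26Ac and Vm34Ca) lay wholly below wild type, replicate 3 included, and 0 wholly above it. Follicle cell markers (8 of 8 with a row) summed to 72.8% of the wild type mean in GCNA null replicates 1 and 2 and to 111% in replicate 3. Yp1, Yp2 and Yp3 held most of that sum. Of the 8 genes, 0 lay wholly below wild type and 2, tj and Fas3, lay wholly above it. Of CG-numbered rows with a wild type mean of at least 20, 20.7% lay wholly below wild type, and the share wholly above was not counted. Fat body markers (7 of 7) summed to 44.0% and 137%, and apolpp held most of that sum. Of the 7, 1 lay wholly below wild type (Fbp1) and 1 wholly above it (Lsp1alpha). Summed muscle markers (12 of 12) were higher in replicates 1 and 2 than in replicate 3, at 148% and 70.3%. Oviduct and spermatheca markers (5 of 5) stood at 261% and 212% of the wild type mean. They summed to 2791, 2825 and 2280 normalized counts in the GCNA null group, against 1307, 1119 and 799 in the wild type group, and 1 of the 5 was called higher. Hemocyte markers (8 of 8) stood at 129% and 109%, with 2 called higher, and Col4a1 and vkg held most of their sum. Of the 8, 0 lay wholly below wild type and 3 (Hml, PPO1 and PPO2) wholly above it. Of all rows tested, 4.25% were called higher. No meaning is read into these counts of markers. The part of these markers in the levels of the 30 genes was not tested.

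**Figure D4:**
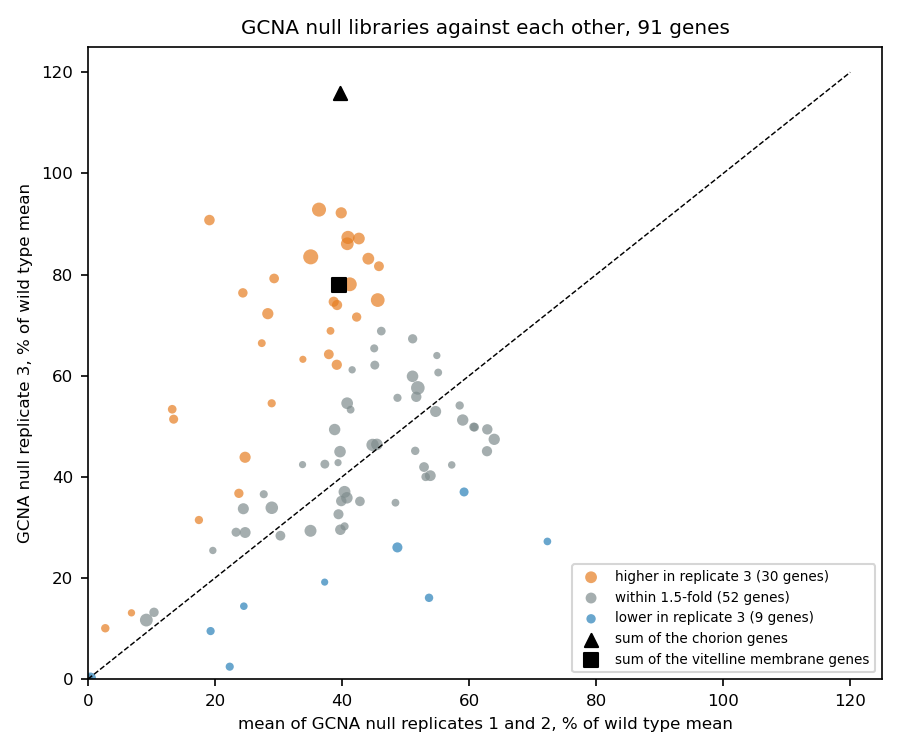
Each of the 91 genes as a point, with the mean of GCNA null replicates 1 and 2 on the x axis and GCNA null replicate 3 on the y axis, both in percent of the wild type mean (linear axes, dashed line at equality, larger points for a higher wild type mean). The 30 genes in orange lie above the line, on the same side as the chorion sum (39.7% and 116%) and the vitelline membrane sum (39.5% and 78.0%), and the 52 genes in grey lie along it.

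Without GCNA null replicates 1 and 2, 30 of the 91 genes no longer met the rule, of which 22 were in the class of 30, 8 in the class of 52 and 0 in the class of 9. The definition of the classes favours this order, since replicate 3 is the library that remains. Without wild type replicate 2, 16 genes no longer met it, and without each of the other libraries in turn 3 to 13. In all, 44 genes met the rule under every one of these omissions, and 28 of those 44 were among the 33 called. Culd, Gem4b, Gem4c, Cc2d2a, CG7386 and CG6293 were among the 44.

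The wild type libraries also differed among themselves in some of the genes. At least a 2-fold span between the lowest and the highest wild type library was seen in 13 of the 91 genes (14.3%), against 6.20% of all CG-numbered rows of that level. Of the 13, wild type replicate 2 was the highest in 6, replicate 3 in 4 and replicate 1 in 3, the last being Ugt50B3, CG31809 and CG17470. CG31809 had 23.00, 29.98 and 30.2 normalized counts in GCNA null and 103, 64.5 and 45.8 in wild-type ovaries, and CG17470 had 138, 114 and 136 in GCNA null and 355, 210.4 and 165 in wild-type ovaries. The part of their low counts in this span was not tested.

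Along the genome the genes left after rows were set aside by name were spread much like all CG-numbered rows of their level. The X chromosome held 15 of them (16.5%, against 18.3% of those rows), 2L held 14 (15.4% against 17.9%), 2R 17 (18.7% against 18.9%), 3L 21 (23.1% against 19.7%) and 3R 24 (26.4% against 24.8%), and chromosome 4 held none of them and 18 of those rows. Gcna and the 6 other rows set aside by name all lie on the X and met the rule. They are counted among the rows compared but not among the genes described, which lowers the X share of the genes. On the X, 7 of the 15 genes lay within 3 Mb of Gcna (46.7%), against 128 of 678 other CG-numbered rows of that level on the X (18.9%). Within 1 Mb there was 1 of the 15, against 77 of 678 rows (11.4%), and within 2 Mb there were 3, against 108 (15.9%). The windows were chosen after the values were seen and no test was made. The rows set aside by name are in neither count, and they include CG11382 and CG13375, which adjoin or overlap genes in these windows. The shares within the windows thus leave out rows near Gcna that met the rule.

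The 7 genes were CG14624, CG3777, CG12535, Gem4b, Gem4c, CG43689 and CG15375. CG3777, at 279703 to 350504, had 132, 133 and 236 normalized counts in GCNA null and 453, 541 and 617 in wild-type ovaries, and it overlaps CG13375, one of the rows set aside. CG14624, at 1206737 to 1207555, had 16.1, 24.5 and 23.2 in GCNA null and 33.7, 46.5 and 44.7 in wild-type ovaries and lies next to CG11382, another of them. CG43689, at 4075743 to 4092237, had 415, 369 and 524 in GCNA null, against 963, 871 and 1049.6 in wild type (log2 difference -1.08, SE 0.15). CG15375, at 4101318 to 4102995, had 10.4, 14.2 and 22.1 in GCNA null and 37.4, 28.5 and 30.5 in wild-type ovaries. Between CG43689 and CG15375 lies the mRNA cap methyltransferase gene Cmtr1 (CG6379), with 2657, 2664 and 2518 in GCNA null and 2378, 2394 and 2244 in wild-type ovaries, which was not called (limma adjusted p = 0.22).

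In 10 pairs the genes lay within 20 kb of each other. CG30440 and Ugt50B3 lie 812 bp apart on 2R on opposite strands, with their 5′ ends facing. CG30440 had 667, 662 and 778 normalized counts in GCNA null, against 2901, 2272 and 1717 in wild type (log2 difference -1.64, SE 0.21). In both genes the wild type libraries had the same order, with replicate 1 the highest and replicate 3 the lowest, while the GCNA null libraries were close together. TpnC4, a muscle troponin C gene within the span of Ugt50B3, had 9.20, 11.05 and 2.01 in GCNA null and 10.3, 6.34 and 2.18 in wild-type ovaries. Cc2d2a and CG34194 overlap by 164 bp on the same strand of 2R, and CG34194 had 73.6, 74.95 and 61.4 in GCNA null, against 196, 202 and 167 in wild type (log2 difference -1.46, SE 0.19). Both had GCNA null libraries within a narrow range. The next gene on that strand, cyp33, was lower too, at 1355, 1253 and 1331 in GCNA null and 1746, 1971 and 1724 in wild type (log2 difference -0.46, SE 0.08, limma adjusted p = 0.026).

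CG14566 and CG14572 lie 1224 bp apart on 3L on opposite strands, and their wild type libraries differed in order, with replicate 3 the highest in CG14566 and replicate 2 in CG14572. CG14218, a predicted serine protease homolog, and CG14204 lie 1635 bp apart on the X. CG14218 had 14.95, 17.4 and 12.1 normalized counts in GCNA null, against 44.9, 39.1 and 35.97 in wild type, and CG14204 had 5.75, 8.68 and 9.06 in GCNA null and 23.4, 23.3 and 17.4 in wild-type ovaries. CG14187 and CG7365 lie 11450 bp apart on 3L with no gene between them. CG7365 had 89.7, 71.01 and 155 in GCNA null and 198, 216 and 209 in wild-type ovaries, so that in both genes GCNA null replicate 3 was above replicates 1 and 2.

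Another 2 pairs have genes between them. CG6495 had 47.2, 38.7 and 35.2 normalized counts in GCNA null and 66.4, 84.6 and 61.04 in wild-type ovaries, 7066 bp from CG31869 on 2L. Of the genes between or within them, UbcD2 had 5829, 5919 and 5850.1 in GCNA null and 5890.2, 5754 and 6241 in wild-type ovaries, and CG6724 had 2830.4, 2805 and 3130.4 in GCNA null and 2916, 3465 and 3306 in wild-type ovaries. CG5245 and CG18549 lie 18060 bp apart on 3R with 9 genes between them. Among these Desat1, a fatty acid desaturase gene, had 18463, 18608 and 19458 in GCNA null and 21945, 21741 and 21809.5 in wild-type ovaries, and the proteasome gene Prosalpha2 had 8426, 8460.2 and 9730.4 in GCNA null and 9207, 10757 and 9337 in wild-type ovaries. Their GCNA null means were 86.3% and 90.8% of the wild type means, and neither was called (limma adjusted p = 0.12 for Desat1 and 0.56 for Prosalpha2).

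**Figure D5:**
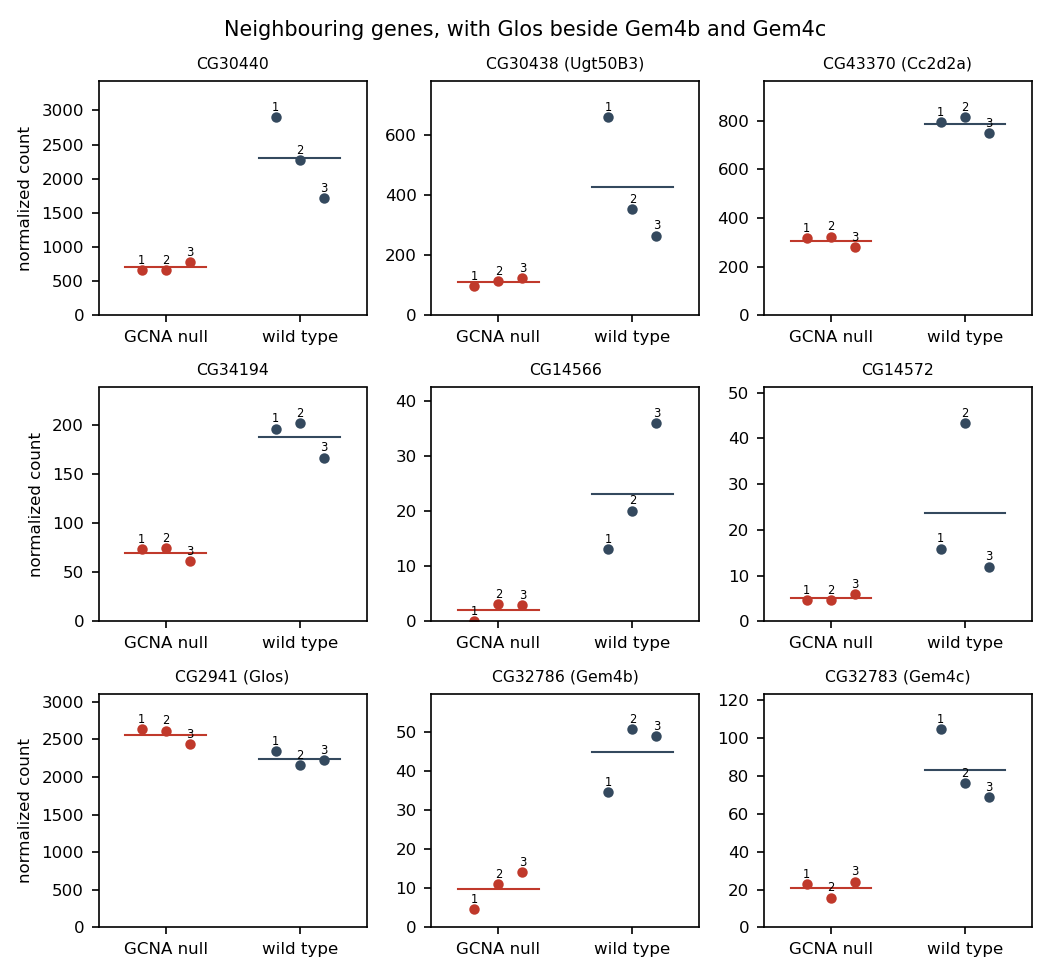
Normalized counts (linear axis from 0) of neighbouring genes in the GCNA null (left of each panel) and wild type libraries, with points numbered by replicate and a line at each group mean: CG30440 with Ugt50B3, Cc2d2a with CG34194, CG14566 with CG14572, and Gem4b and Gem4c with their neighbour Glos. Glos is at 2435 to 2635 in GCNA null and 2154 to 2345 in wild-type ovaries, whereas Gem4b is at 4.60 to 14.1 in GCNA null and 34.6 to 50.7 in wild-type ovaries.

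Genes next to or overlapping the 91 were read from the fit over all rows. Neighbours that are themselves among the 91 (15) or were set aside by name (2) were left out, and 10 of these 17 were called lower, so the rule took part in the share of lower neighbours that remain. Of 179 remaining rows, 133 were tested, 4 were called lower (3.01%, against 2.11% of all rows tested) and 6 were called higher (4.51%, against 4.25%). Their median log2 difference was -0.03, against -0.00045 over all rows. The 4 lower were cyp33, CG9485, the potassium channel gene Ork1 and the long non-coding RNA CR43836, and the 6 higher were CG32187, CG5958, Fis1, laccase2, Idh and uno.

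The largest difference among neighbours was that of CG32187, which lies 85 bp from CG32191 on the same strand of 3L. CG32187 had 85.1, 78.9 and 52.3 normalized counts in GCNA null, against 3.74, 6.34 and 1.09 in wild type (log2 difference 3.99, SE 0.60, limma adjusted p = 0.016). CG32191 itself had 16.1, 20.5 and 20.1 in GCNA null and 28.99, 42.3 and 28.3 in wild-type ovaries. CG32191 was chosen for being lower, so the opposite direction of these 2 neighbours rests in part on the rule. CG5958, 3975 bp from CG5973, was also higher, with 3698, 3591 and 4356 in GCNA null, against 1756, 1549.9 and 756 in wild type (log2 difference 1.65, SE 0.34, limma adjusted p = 0.042). In GCNA null ovaries the libraries of CG5958 were alike, while CG5973 was higher in GCNA null replicate 3 than in replicates 1 and 2. With wild type replicates 1, 2 and 3 left out in turn, limma called 4, 2 and 3 of the 133 neighbours. Of all 10132 rows, 368, 355 and 289 were called in these fits.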

How the data were processed

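Ovary total RNA of 6 libraries was measured: 3 of GCNA null and 3 of wild type females. Per the labels' protocols, the RNA, kept from 18 nt upwards and treated with DNase, was depleted of ribosomal RNA and sequenced as strand-specific libraries. Per the submitters' processing notes, the tools were STAR 2.5, CASAVA 1.8.2 and DESeq2, with dm6 as the assembly. Which annotation, read counter and strand setting were used is not given in the sources. The values the authors deposited are a signal: the reads of a gene, scaled by a size factor of its library, which was read from the values. In each library all values (100%, within 1e-06) were whole multiples of 1 step, so reads could be recovered. In GCNA null replicate 3 that step was 1.01, close to 1, so that its values differ little from the reads themselves.

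Rows were matched to the Ensembl BDGP6 release 115 annotation by symbol or synonym (5852 of 5868 CG-numbered rows and all 91 genes). All rows were fitted with limma 3.58.1 under R 4.3.3, with moderated variances that follow the mean, after adding 1 to each normalized count and taking log2. Differences are GCNA null minus wild type. A row entered with 10 or more normalized counts in 3 or more libraries, and calls are two-sided at a Benjamini-Hochberg adjusted p under 0.05. GCNA null replicates 1 and 2 were averaged as 1 sample. With 1 added, the log2 differences understate the change of scarce RNAs, and the floor of 3 reads covers counting error only. Alternatives were edgeR 4.0.16 and DESeq2 1.42.0 on recovered reads, other pseudocounts, filters and scaling, a replicate block and the omission of libraries.

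The 91 genes, the lists of marker genes and the tests were chosen with earlier results of these data known. Genes were named by a rule: the 12 with the smallest GCNA null mean relative to the wild type mean, the 6 most abundant in counts and per kilobase, those nearest the limits, those within 20 kb of each other, the 4 highest and 4 lowest in GCNA null replicate 3 against replicates 1 and 2, those with another symbol, and up to 10 called neighbours. For any other gene the text says so. Genes were grouped by known role by hand. A planned comparison of proteins and promoters was not run.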

Additional observations from a re-analysis of the deposited data

How the results depend on the processing

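The rule keeps only genes whose groups do not overlap, so their direction is no sign of stability. Their median log2 difference, -1.05, was between -0.966 and -1.31 over the alternatives. The number of rows called, 645, became 1684 with 6 separate libraries and no replicate block, 1117 with 6 separate libraries and a replicate block, 1297 with DESeq2 on recovered reads and 146 without GCNA null replicates 1 and 2 (an omission chosen after seeing the data), and it lay at 289 to 639 with 1 library left out. The genes called lower, 33, became 61 with 6 separate libraries, 39 with the block, 44 with DESeq2, 32 with edgeR and 19 without GCNA null replicates 1 and 2, and 18 to 43 with 1 library left out. The neighbours called, 10, became 20 with 6 separate libraries, 17 with the block, 22 for all genes within 10 kb and 0 without GCNA null replicates 1 and 2, and 2 to 13 with 1 library left out. The number of genes meeting the rule, 91, became 57 with a ratio of at least 2 and 85 to 174 with 1 library left out, the highest without GCNA null replicate 3. The cause was not tested, except that a wider window or a stricter ratio takes in more or fewer genes by construction. Same-numbered libraries did not deviate together (correlations of -0.18, 0.07 and -0.09), and GCNA null replicates 1 and 2 correlated best with wild type replicate 3, and GCNA null replicate 3 with wild type replicate 1, so the numbers do not pair the samples. Filters on low counts do not enter the median of the genes and were not run for it. Low counts limit the precision of the 26 genes with a wild type mean under 50.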

Other observations

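Wild type replicate 2 held digestive RNAs that the other libraries had at far lower levels. In 27 rows it had at least 50 normalized counts and at least 5 times the value of every other library, and no row stood out in this way in wild type replicate 1 or 3. The limits were chosen after the values were seen. Of the 91 genes, CG6295 and CG17192 are in this set. The other 25 rows include the proteases Jon65Aiv, Jon25Bi and betaTry, the lysozyme gene LysD and the amylase gene Amy-p. The 3 rows highest in wild type replicate 2 were CG12374, LysD and Jon65Aiv. LysD had 274, 280.1 and 4.03 normalized counts in GCNA null and 622, 3547 and 88.3 in wild-type ovaries. Jon65Aiv had 603, 571 and 124 in GCNA null and 317, 3135 and 134 in wild-type ovaries. CG12374 had 186, 196 and 16.1 in GCNA null and 218, 3949 and 52.3 in wild-type ovaries.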
